A study of Mus musculus with 6 samples.

Results

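Surface markers are the membrane proteins by which muscle stem cells (MuSCs, the satellite cells from which muscle fibres are renewed) are recognised, sorted and held in their niche. The 10 genes described here are Cd34, Vcam1, Sdc3, Sdc4, Cxcr4, Calcr, Cd82, Cav1, Ncam1 and Chodl. They were taken by gene symbol from a table of 22081 genes, and all 10 were in it. RNA-seq was performed on 6 libraries of freshly isolated mouse MuSCs on a C57BL/6 background, 3 labelled Control and 3 labelled Taf4asKO, each made from 10 ng of total RNA. In Taf4asKO mice, both copies of Taf4a (Taf4 in the table), which encodes a subunit of the general transcription factor TFIID, carry loxP sites around exons that a tamoxifen-inducible Cre recombinase under Pax7 removes in adult animals. Controls were littermates that carried the same floxed alleles, either without the Cre or, as the study lists them, with it. Cells were taken some weeks after tamoxifen, and whether the control animals of these libraries received it is not given in the sources used here. Because Pax7 drives the Cre, recombination is limited to cells with an active Pax7 gene, and other cells in a library keep the floxed alleles intact.

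MuSCs rest between the muscle fibre and its basement membrane, and their surface proteins serve that position. Adhesion molecules (VCAM1, NCAM1, the sialomucin CD34) connect them to neighbouring cells, heparan sulfate proteoglycans (the syndecans) hold growth factors and matrix, and G protein-coupled receptors (CXCR4, CALCR) receive signals that keep or move them. Tetraspanins such as CD82 and caveolins such as CAV1 organise the membrane itself, and chondrolectin (Chodl) is a C-type lectin of the cell surface. CD34, CALCR, VCAM1 and syndecan-4 are widely used to identify quiescent MuSCs, although most of these genes are also active in endothelial, stromal, nerve-associated or blood cells.

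Values are normalized counts, that is, reads per gene divided by a library factor and rounded to a whole number by the authors. Totals lay between 12338676 and 14551732 normalized counts per library. Differences are log2 differences of Taf4asKO minus Control on log2(value + 1), and a gene passed with a Benjamini-Hochberg adjusted p under 0.05 in limma over all genes tested and a fold change of at least 1.3. The labels name no separate animals for the 3 libraries of a group, so p-values measure the spread between these libraries. The targeted gene did not separate the groups. The Control values of Taf4 were 613, 534 and 478 normalized counts and the Taf4asKO values 631, 565 and 574 (log2 difference 0.13, SE 0.12, limma adjusted p 0.524), so that directions are given as the labels have them. The value sums reads over all exons, most of which the recombination leaves in place, so a gene total need not show the deletion.

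Of the 10 surface markers, 4 passed the threshold. Cd34 fell to 25.3% of its Control level and Cd82 to 71.6%, while Vcam1 rose 1.67-fold and Sdc4 rose 1.86-fold in the libraries labelled Taf4asKO. Sdc3, Cxcr4, Calcr, Cav1, Ncam1 and Chodl did not pass. Among all 18562 genes tested, 12.6% passed, 6.71% lower and 5.93% higher. The 4 markers that passed are 40.0% of the 10. The markers were chosen with earlier results of these data known, so this share was not read as enrichment. The same holds for the lists of partner and other surface genes below. All genes are also an unlike baseline, with a median standard error of 0.22, against 0.11 for genes with a mean of 500 or more. The median log2 difference was 0.11 over the 10 markers and 0.004 over all genes tested. When the replicate number was added as a block, 5 of the 10 passed, 3 lower (Cxcr4 in addition) and 2 higher, beside 18.1% of all genes, 8.98% lower and 9.09% higher.

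**Figure D1:**
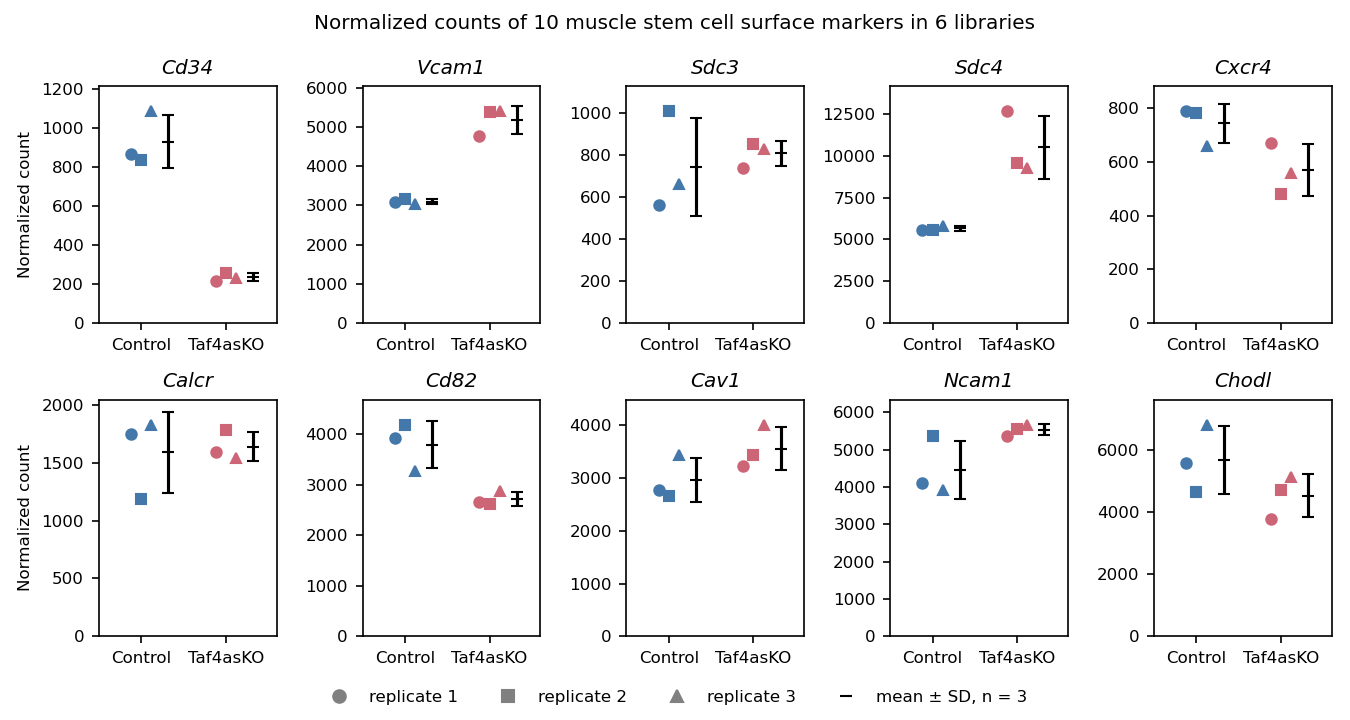
Normalized counts (vertical axes, each from 0) of the 10 surface markers in the 3 Control and 3 Taf4asKO libraries; marker shapes give the replicate number and bars the mean ± SD (n = 3). The groups stand clear of each other for Cd34, Vcam1, Sdc4, Cd82 and Ncam1, and overlap for the other 5 genes.

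**Figure D2:**
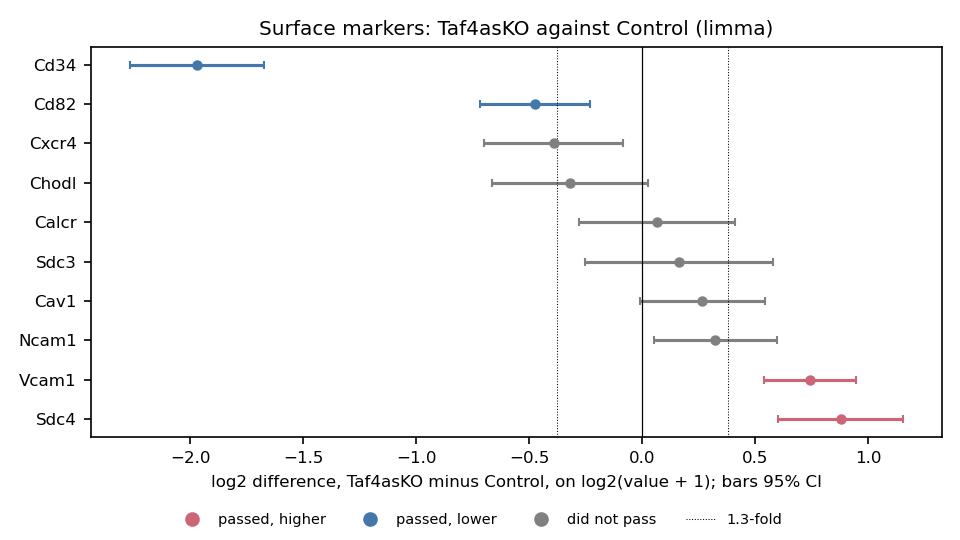
Log2 difference of Taf4asKO minus Control with its 95% confidence interval (limma) for each marker, with dotted lines at 1.3-fold. Cd34 lies near -1.97, far from the other 9 markers, which run from -0.48 for Cd82 to 0.88 for Sdc4.

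The promoters of 3 of the 4 markers that passed are shown because the deleted protein belongs to the factor that is recruited to core promoters. RefSeq (GRCm38.p6) gave a promoter window for 8 of the 10 markers. Each sequence holds the 250 bases before the RefSeq start nearest to the 5′ end of the gene in the table, written 5′ to 3′ on the strand of the gene, with GGGCGG (the GC box of Sp factors, on that strand) in capitals.
Cd34, plus strand, chr1:194938571-194938820: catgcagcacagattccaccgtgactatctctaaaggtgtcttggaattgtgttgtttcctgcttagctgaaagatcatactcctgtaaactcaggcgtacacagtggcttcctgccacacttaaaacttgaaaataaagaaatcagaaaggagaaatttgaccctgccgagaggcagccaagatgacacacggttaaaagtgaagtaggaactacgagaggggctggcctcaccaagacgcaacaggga
Cd82, minus strand, chr2:93462951-93463200: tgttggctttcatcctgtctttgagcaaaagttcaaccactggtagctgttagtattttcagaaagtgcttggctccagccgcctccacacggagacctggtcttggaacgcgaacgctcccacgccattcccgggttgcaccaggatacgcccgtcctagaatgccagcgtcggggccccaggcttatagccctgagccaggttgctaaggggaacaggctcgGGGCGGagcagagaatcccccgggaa
Sdc4, minus strand, chr2:164443189-164443438: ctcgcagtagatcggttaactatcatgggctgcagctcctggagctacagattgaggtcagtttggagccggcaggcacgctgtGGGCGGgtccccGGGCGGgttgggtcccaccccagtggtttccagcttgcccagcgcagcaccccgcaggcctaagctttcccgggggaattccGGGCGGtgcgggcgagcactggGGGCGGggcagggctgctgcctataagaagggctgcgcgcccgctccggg
The Sdc4 window held 4 GC boxes, 166, 154, 72 and 50 bases before the start, the Cd82 window held 1, 26 bases before it, and the Cd34 window held none. The windows were searched on both strands for GGGCGG, for CCAAT (the NF-Y box) and for TATAAA (the TATA box), and these letters occurred in 32.7%, 33.8% and 12.4% of all 32851 RefSeq windows of this length. CCAAT was in none of the 8 windows. The TATAAA letters were found in the windows of Cxcr4 and Cav1, and GGGCGG also in those of Sdc3, Cxcr4 and Cav1. The GC content was 68.0% in the Sdc4 window, 58.4% in that of Cd82 and 46.4% in that of Cd34. A match of letters is a description of the sequence and was not read as a binding site.

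Cd34 (ENSMUSG00000016494, mm10 chr1:194938819-194961279, plus strand) encodes a sialomucin that has long served to sort MuSCs and blood progenitors. It had 868, 836 and 1087 normalized counts in the Control libraries and 216, 259 and 232 in those of Taf4asKO. Each Taf4asKO library lay far below the lowest Control library. The means were 930.3 ± 136.6 and 235.7 ± 21.7 (SD, n = 3), a log2 difference of -1.97 (SE 0.13, limma adjusted p 5.83e-05). Cd34 passed in each of the 15 alternatives, and its difference lay between -2.04 and -1.85 in the 6 fits on 5 libraries. In bulk RNA, fewer cells that make a transcript and less transcript per cell cannot be told apart. Of its 7290 exon bases, 148 overlap the antisense gene Gm16897, and whether counting used the strand is not given in the sources used here.

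The 2 other members of the CD34 family moved apart. Podxl, which encodes podocalyxin, rose from 77, 131 and 132 to 185, 177 and 247 normalized counts (log2 difference 0.86, SE 0.23, limma adjusted p 0.0366). Podxl2, which encodes endoglycan, fell from 157, 209 and 212 to 97, 100 and 103 (-0.93, SE 0.17, adjusted p 0.00665), and 1099 of its exon bases overlap an antisense gene. The ratio of Podxl to Cd34 within a library was 0.0887, 0.157 and 0.121 in Control and 0.856, 0.683 and 1.06 in Taf4asKO. This ratio does not depend on the scaling of the libraries. Its groups were clear of each other (two-sided exact permutation p 0.1, the smallest that 3 against 3 libraries allow, and 0.125 after adjustment over 5 such ratios). With Podxl higher and Cd34 lower in every Taf4asKO library, this separation was fixed beforehand, and the p adds no support. Podxl did not pass without Control replicate 1 (0.61, adjusted p 0.0749) or without Taf4asKO replicate 1, 2 or 3 (0.0873, 0.0858 and 0.157).

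Vcam1 (ENSMUSG00000027962, mm10 chr3:116109949-116129688, minus strand) encodes an immunoglobulin-family adhesion molecule that binds the integrins α4β1 and α9β1 on other cells. It had 3092, 3157 and 3046 normalized counts in the Control libraries and 4772, 5395 and 5401 in those of Taf4asKO. The Control values lay close together, and each Taf4asKO library was above all of them. The means were 3098.3 ± 55.8 and 5189.3 ± 361.4 (SD, n = 3), a log2 difference of 0.74 (SE 0.09, limma adjusted p 0.00106). The difference passed in each of the 15 alternatives. Of the 7 genes listed around VCAM1, its integrin counterparts and the ezrin family that anchors it, 0 passed in limma, beside 12.6% of all genes, and 2 had an unadjusted p under 0.05, beside 28.8% of all genes. Itga4 had 23, 45 and 70 normalized counts in the Control libraries and 77, 78 and 79 in those of Taf4asKO (0.88, adjusted p 0.124), with 1.25 and a call (adjusted p 0.0335) without Control replicate 3 and a lowest difference of 0.47 without one library. Itgb1 had a log2 difference of 0.21 (adjusted p 0.291). Msn, which encodes moesin, reached an adjusted p of 0.0341 with a log2 difference of 0.32, short of the fold limit.

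Ncam1 (ENSMUSG00000039542, mm10 chr9:49502136-49798925, minus strand) encodes the neural cell adhesion molecule, an immunoglobulin-family protein of myogenic and neural cells. It had 4108, 5354 and 3920 normalized counts in the Control libraries and 5373, 5561 and 5660 in those of Taf4asKO. The groups did not overlap, but Control replicate 2 lay just under the lowest Taf4asKO library. Ncam1 did not pass (log2 difference 0.32, SE 0.12, 95% confidence interval 0.05 to 0.60, limma adjusted p 0.111). Groups without overlap were found for 5 of the 10 markers, 2 lower and 3 higher, and for 33.0% of all genes tested, 16.4% lower and 16.6% higher. Without Control replicate 2, Ncam1 passed (0.46, adjusted p 0.00752), and with the replicate block its adjusted p was 0.0488 with the same difference, below the fold limit. Of its exon bases, 417 overlap the antisense gene Gm11149.

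Among the 6 genes listed around NCAM1, 3 passed, beside 12.6% of all genes tested. St8sia2, which encodes a sialyltransferase that puts polysialic acid on NCAM1, rose from 54, 75 and 84 to 120, 132 and 148 normalized counts (0.92, SE 0.21, limma adjusted p 0.0182). L1cam, a neural adhesion molecule, rose from 124, 315 and 324 to 472, 629 and 620 (1.28, SE 0.32, adjusted p 0.0259). Gfra1, which encodes a receptor subunit for GDNF that can signal with NCAM1, fell from 963, 1454 and 886 to 561, 612 and 432 (-1.02, SE 0.19, adjusted p 0.00795), and 416 of its exon bases overlap an antisense gene. St8sia4, the other polysialyltransferase, was near 0 in most libraries (0, 5 and 4 against 5, 4 and 16) and did not pass. Ncam2 had 7, 27 and 25 against 35, 76 and 41 and passed under the replicate block alone (adjusted p 0.0123, against 0.0847 without it). Without any one of the Taf4asKO replicates 1, 2 and 3, St8sia2 (adjusted p 0.0503, 0.0795 and 0.0971) and L1cam (0.059, 0.103 and 0.0956) did not pass. The difference of L1cam was 0.83 without Control replicate 1. NCAM1 and L1CAM are also made by Schwann cells, whose markers are given further on.

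Sdc4 (ENSMUSG00000017009, mm10 chr2:164424247-164443186, minus strand) encodes syndecan-4, a transmembrane heparan sulfate proteoglycan that acts with growth factor and matrix receptors. It had 5564, 5586 and 5814 normalized counts in the Control libraries and 12662, 9579 and 9266 in those of Taf4asKO. The 3 Control libraries were nearly equal, and Taf4asKO replicate 1 was the highest of all. The means were 5654.7 ± 138.4 and 10502.3 ± 1876.9 (SD, n = 3), a log2 difference of 0.88 (SE 0.12, limma adjusted p 0.00211). Without Taf4asKO replicate 1 the difference was 0.74, the lowest of the 6 fits on 5 libraries, and it passed in each of the 15 alternatives.

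Sdc3 (ENSMUSG00000025743, mm10 chr4:130792537-130826319, plus strand), which encodes syndecan-3, had 562, 1007 and 659 normalized counts in the Control libraries and 738, 852 and 830 in those of Taf4asKO. The Taf4asKO values fell inside the Control range, which Control replicate 2 widened. The log2 difference was 0.16 (SE 0.19, 95% confidence interval -0.25 to 0.58, limma adjusted p 0.618). The value rested on single Control libraries, since Sdc3 passed without replicate 2 (0.40, adjusted p 0.0399) and its difference was -0.017 without replicate 1. The ratio of Sdc4 to Sdc3 within a library was 9.9, 5.55 and 8.82 in Control and 17.2, 11.2 and 11.2 in Taf4asKO, without overlap (exact permutation p 0.1, adjusted 0.125). Of the exon bases of Sdc3, 463 overlap antisense genes. The other syndecans did not pass, with 234, 382 and 350 against 259, 243 and 306 normalized counts for Sdc1 (-0.23, limma adjusted p 0.453, between -0.45 and -0.09 without one library) and 738, 858 and 816 against 884, 976 and 896 for Sdc2 (0.19, adjusted p 0.245).

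Of 16 genes listed around the syndecans, which make, trim or share heparan sulfate chains or bind syndecans, 2 passed (12.5%, beside 12.6% of all genes tested), both higher. Sulf1, which encodes an extracellular sulfatase that edits heparan sulfate, rose from 1794, 1832 and 2340 to 2695, 2922 and 3054 normalized counts (0.55, SE 0.12, limma adjusted p 0.015). Gpc3, which encodes the membrane-anchored proteoglycan glypican-3, rose from 289, 627 and 556 to 817, 1130 and 807 (0.96, SE 0.26, adjusted p 0.0363). The chain polymerases Ext1 and Ext2 had log2 differences of 0.03 and -0.05. Under the replicate block 6 of the 16 passed (18.1% of all genes), 5 higher and 1 lower, with Gpc6, Sulf2, Fn1 and Ptprs added. Gpc3 did not pass without any one of the Taf4asKO replicates (adjusted p 0.0836, 0.148 and 0.0811), nor Sulf1 without Taf4asKO replicate 2 or 3 (0.0742 and 0.0774). The difference of Gpc3 was 0.62 without Control replicate 1. Gpc6, Sulf2 and Fn1 passed without Control replicate 3 (adjusted p 0.033, 0.00941 and 0.0138) and Ptprs without Control replicate 1 (0.0417).

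Cxcr4 (ENSMUSG00000045382, mm10 chr1:128588199-128592290, minus strand) encodes the receptor for the chemokine CXCL12. It had 789, 784 and 661 normalized counts in the Control libraries and 672, 482 and 558 in those of Taf4asKO. The groups overlapped, since Taf4asKO replicate 1 lay above Control replicate 3, while Taf4asKO was lower in 3 of 3 same-numbered pairs. The log2 difference was -0.39 (SE 0.14, 95% confidence interval -0.70 to -0.08, limma adjusted p 0.0926). Under the replicate block Cxcr4 passed (-0.39, SE 0.12, adjusted p 0.0394).

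The 2 genes of the list that share the CXCL12 axis with Cxcr4 changed in opposite directions. Cxcl12 rose from 432, 586 and 672 to 788, 846 and 835 normalized counts (0.57, SE 0.15, limma adjusted p 0.0358). Ackr3, which encodes the atypical receptor that takes up CXCL12, fell from 1294, 1344 and 1183 to 806, 914 and 715 (-0.65, SE 0.11, adjusted p 0.00558). Neither gene had overlapping groups. Cxcl12 did not pass without Control replicate 1 (0.39, adjusted p 0.0727) or without any one of the Taf4asKO replicates (0.0878, 0.133 and 0.123 for replicates 1, 2 and 3), whereas Ackr3 passed in all 6 fits on 5 libraries. Cxcl14, a further chemokine of the list, had 48, 127 and 98 against 77, 206 and 262 and passed under the replicate block alone (adjusted p 0.00705, against 0.209 without it). The ratio of Ackr3 to Cxcr4 within a library did not part the groups (1.64, 1.71 and 1.79 in Control, 1.2, 1.9 and 1.28 in Taf4asKO, exact permutation p 0.4).

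Calcr (ENSMUSG00000023964, mm10 chr6:3685680-3764714, minus strand) encodes the calcitonin receptor, a receptor of quiescent MuSCs for which collagen V is a ligand. It had 1748, 1190 and 1826 normalized counts in the Control libraries and 1593, 1780 and 1538 in those of Taf4asKO. The groups overlapped, and Control replicate 2 was the lowest library. The 95% confidence interval of the log2 difference ran from -0.28 to 0.41 (limma), and the sign turned without Control replicate 2 (-0.13, adjusted p 0.345). Of the 8 tested genes listed around CALCR, 0 passed in limma and 1 had an unadjusted p under 0.05, beside 12.6% and 28.8% of all genes. Col5a3 had 10914, 13229 and 15411 normalized counts in the Control libraries and 9091, 11365 and 11490 in those of Taf4asKO (-0.30, adjusted p 0.199), and Col5a1 had a log2 difference of -0.21 (adjusted p 0.261). Of the genes for receptor activity-modifying proteins, Ramp2 had 331 to 609 normalized counts over the 6 libraries, Ramp1 10 to 36 and Ramp3 0 to 5. Their exon lengths are 3301, 3022 and 1380 bases. Ramp3 was too low to be tested, and 1103 exon bases of Ramp2 overlap Vps25 on the same strand. Calcrl, the related receptor of endothelial cells, had 112, 232 and 195 against 234, 238 and 275 (0.53, adjusted p 0.174, between 0.22 and 0.74 without one library).

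Cd82 (ENSMUSG00000027215, mm10 chr2:93419111-93462946, minus strand) encodes a tetraspanin, a membrane protein that gathers integrins and other receptors into domains. It had 3910, 4178 and 3269 normalized counts in the Control libraries and 2654, 2609 and 2869 in those of Taf4asKO. All Taf4asKO libraries were below all Control libraries. The means were 3785.7 ± 467.1 and 2710.7 ± 139.0 (SD, n = 3), a log2 difference of -0.48 (SE 0.11, limma adjusted p 0.0194). Leaving out Control replicate 1 (adjusted p 0.0542) or Taf4asKO replicate 1, 2 or 3 (0.0689, 0.0993 and 0.0575) ended the call, while the difference stayed between -0.58 and -0.40. Of the 7 tetraspanins and partners listed beside it, Cd151 passed (14.3%, beside 12.6% of all genes tested), rising from 614, 887 and 692 to 1212, 1170 and 1179 (0.72, SE 0.13, adjusted p 0.00756), with 193 of its exon bases overlapping an antisense gene. Cd9 and Cd81, tetraspanins that act in cell fusion, had log2 differences of 0.10 (adjusted p 0.593) and 0.32 (adjusted p 0.0856), the latter passing without Control replicate 2 (0.43, adjusted p 0.00843).

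Cav1 (ENSMUSG00000007655, mm10 chr6:17306335-17341452, plus strand) encodes caveolin-1, the coat protein of caveolae, flask-shaped pits of the plasma membrane. It had 2773, 2662 and 3425 normalized counts in the Control libraries and 3214, 3423 and 4000 in those of Taf4asKO. The groups overlapped through Control replicate 3, although Taf4asKO was higher in 3 of 3 same-numbered pairs. Cav1 did not pass (0.27, SE 0.12, 95% confidence interval -0.01 to 0.54, limma adjusted p 0.187, and 0.0519 with the replicate block).

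Of the 8 caveolar genes listed beside Cav1, 3 passed (37.5%, beside 12.6% of all genes tested). Cav2, whose product assembles with caveolin-1, rose from 324, 309 and 373 to 807, 763 and 770 normalized counts (1.22, SE 0.11, limma adjusted p 0.000209). Cavin2, which encodes a coat protein that shapes caveolae, fell from 4768, 4988 and 4313 to 1517, 1988 and 1934 (-1.38, SE 0.12, adjusted p 0.00016). Cavin1, the coat protein that all caveolae need, rose 1.33-fold from 4831, 5220 and 5499 to 6485, 7073 and 7138 (0.41, SE 0.09, adjusted p 0.0192), and did not pass without Control replicate 1 (adjusted p 0.0642) or Taf4asKO replicate 2 or 3 (0.103 and 0.101). Cavin3 and Ehd2 had log2 differences of -0.15 and -0.004, and the muscle fibre forms Cav3 and Cavin4 stayed at or under 20 normalized counts in each library. Within a library, the ratio of Cav2 to Cav1 was 0.117, 0.116 and 0.109 in Control and 0.251, 0.223 and 0.193 in Taf4asKO. The ratio of Cavin2 to Cavin1 was 0.987, 0.956 and 0.784 in Control and 0.234, 0.281 and 0.271 in Taf4asKO. Both ratios had groups clear of each other (exact permutation p 0.1 each, adjusted 0.125). For Cavin2 to Cavin1 this was fixed beforehand by the opposite changes of the 2 genes, so its p adds no support.

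Chodl (ENSMUSG00000022860, mm10 chr16:78930948-78951733, plus strand) encodes chondrolectin, whose transcript is abundant in quiescent MuSCs. It had 5587, 4653 and 6817 normalized counts in the Control libraries and 3768, 4713 and 5138 in those of Taf4asKO. The groups overlapped, with 2 of 3 same-numbered pairs lower in Taf4asKO. Chodl did not pass (-0.32, SE 0.15, 95% confidence interval -0.66 to 0.03, limma adjusted p 0.205). Layn, the related lectin gene of the list, was at 9 to 25 normalized counts and did not pass.

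Levels of different markers were compared per 1000 bases of exon. In Control, Sdc4 was the highest at 2220.1 ± 54.3 normalized counts per 1000 exon bases (SD, n = 3), clear of Cd82 at 1259.8 ± 155.4. Cd82, Chodl (1035.5 ± 197.7) and Cav1 (857.5 ± 119.7) followed, each overlapping its neighbour. Ncam1 (514.9 ± 90.0) stood apart from Cav1 above and Cxcr4 below. Cxcr4 (411.9 ± 40.1), Calcr (405.9 ± 88.7) and Vcam1 (349.3 ± 6.29) overlapped in turn. Cd34 (127.6 ± 18.7) and Sdc3 (124.0 ± 39.1) were lowest and overlapped. In Taf4asKO, Sdc4 was still the highest, at 4123.4 ± 736.9, Vcam1 stood above Calcr and Cxcr4 at 585.0 ± 40.7, and Cd34 stood alone at the bottom, at 32.3 ± 2.98.

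**Figure D3:**
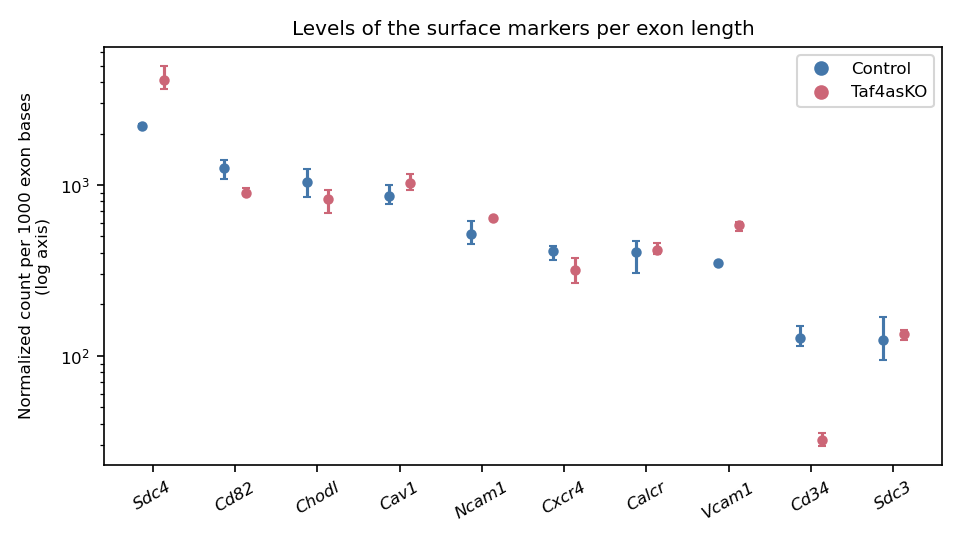
Normalized count per 1000 exon bases (log axis) of each marker, ordered by the Control mean; points are means and bars run from the lowest to the highest of 3 libraries. Cd34 drops from 127.6 to 32.3 and becomes the lowest marker in Taf4asKO, and Vcam1 climbs from 349.3 to 585.0.

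Of the 63 genes listed as relatives, ligands, modifiers or partners of the markers, 59 were tested and 13 passed (22.0%), 4 lower and 9 higher, beside 12.6% of all genes tested, 6.71% lower and 5.93% higher. Under the replicate block 19 passed, 5 lower and 14 higher, beside 18.1% of all genes, 8.98% lower and 9.09% higher. The median log2 difference of the 59 genes was 0.23. Of the listed genes, 3 were not analysed here.

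**Figure D4:**
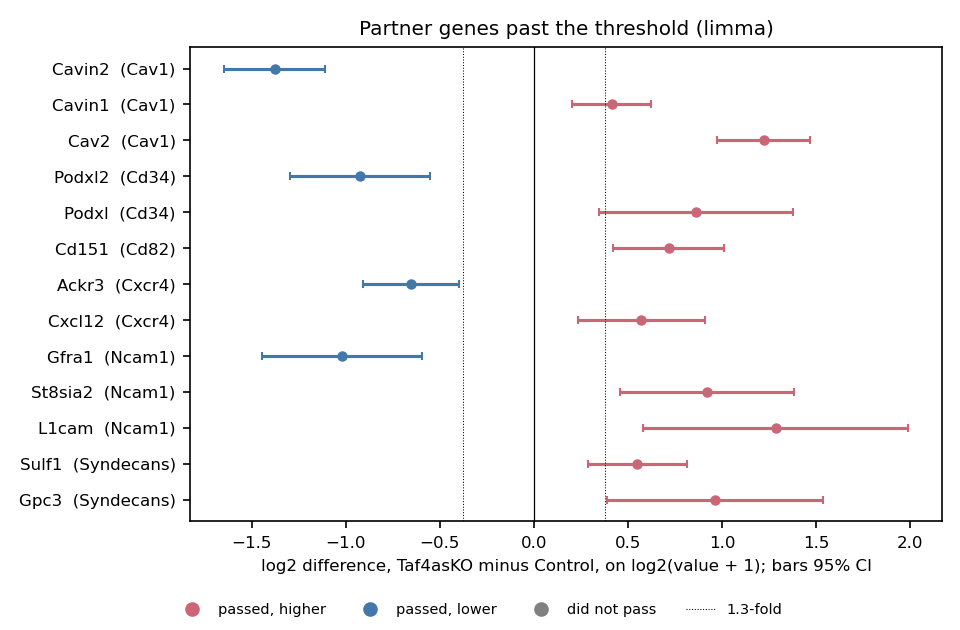
Log2 difference of Taf4asKO minus Control with its 95% confidence interval for the 13 listed partner genes that passed (limma), with the marker each was listed for in brackets and dotted lines at 1.3-fold. Cavin2 is the lowest at -1.38, and L1cam and Cav2 are the highest at 1.28 and 1.22.

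Other genes of the MuSC surface were taken from a list of 30, of which 10 passed (33.3%), 8 lower and 2 higher, beside 12.6% of all genes tested, 6.71% lower and 5.93% higher. The replicate block added Cntfr (0.65, adjusted p 0.0298, against 0.0869 without it), for 11 in all, 8 lower and 3 higher, beside 18.1% of all genes, 8.98% lower and 9.09% higher. Itga7, which encodes the integrin used as positive sort marker, fell from 4665, 5480 and 4287 to 3877, 3600 and 3212 normalized counts (-0.43, SE 0.12, limma adjusted p 0.0377), and kept its call without Control replicate 3 alone, the adjusted p lying between 0.0538 and 0.165 without any other single library. Sgca, which encodes the dystrophin-associated α-sarcoglycan, fell from 389, 421 and 425 to 127, 108 and 101 (-1.87, SE 0.14, adjusted p 8.23e-05), close to the difference of Cd34. The growth factor receptors Fgfr4 (-0.91, adjusted p 0.000529) and Met (-0.80, adjusted p 0.00414) fell. So did Ngfr (-0.92, adjusted p 0.00871), Megf10 (-0.76, adjusted p 0.00744), Tenm4 (-0.63, adjusted p 0.00824) and the cadherin gene Cdh15 (-0.52, adjusted p 0.0209). Erbb3, which encodes a neuregulin receptor, rose (1.24, adjusted p 0.0314), as did the adhesion receptor gene Adgrg6 (1.03, adjusted p 0.00584). Without any one of the Taf4asKO replicates 1, 2 and 3, Erbb3 (adjusted p 0.0743, 0.125 and 0.0922) and Cdh15 (0.0814, 0.0934 and 0.0504) did not pass. The difference of Erbb3 was 0.78 without Control replicate 1. Erbb3 and Adgrg6, which rose, and Ngfr, which fell, are also active in Schwann cells.

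The cells were sorted as negative for SCA1, CD45 and CD31 and positive for integrin α7 or a Pax7 reporter, and transcripts of these and of other cell types were therefore examined. Pax7 had 12082, 12244 and 13007 normalized counts in the Control libraries and 10669, 10363 and 11164 in those of Taf4asKO and did not pass (-0.21, SE 0.09, limma adjusted p 0.161). Ly6a, which encodes SCA1, had 2 to 14 normalized counts over the 6 libraries, and Pecam1, which encodes CD31, had 31 to 142. Ptprc, which encodes CD45, was not analysed here. Schwann cell markers are given one by one, since their list was shortened to 4 genes after the values were seen and no count is read from it. Sox10 (1.34, adjusted p 0.0227), Mbp (0.80, adjusted p 0.0342) and Cdh19 (1.51, adjusted p 0.00476) rose, and S100b did not pass (0.46, adjusted p 0.343). Sox10 did not pass without any one of the Taf4asKO replicates (adjusted p 0.0559, 0.0975 and 0.0799), and its difference was 0.89 without Control replicate 1. Mbp passed without Control replicate 2 and in no other fit on 5 libraries (adjusted p from 0.0504 to 0.14). As a description, the summed values of the 4 were 684 to 1485 in Control and 2033 to 2774 in Taf4asKO. Of 9 endothelial markers 0 passed in limma, 7 having an unadjusted p under 0.05, and 4 passed with the replicate block, all higher. The shares over all genes were 12.6%, 28.8% and 18.1%. The endothelial sums were 951 to 1431 and 1560 to 2064, and Emcn and Cldn5 were at or under 20 normalized counts in each library. Control replicate 1 had the lowest Control sum for Schwann (684, against 1485 and 1264) and endothelial markers (951, against 1431 and 1371). It was also the lowest Control library in the fibro-adipogenic, mural, immune and myofibre sums given next.

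Fibro-adipogenic markers, 10 in all, moved both ways, with Col3a1 and Dpt lower and Gsn higher, and their sums overlapped (72291 to 116317 in Control, 67923 to 102443 in Taf4asKO). Under the replicate block 6 of the 10 markers were higher and 2 lower, beside 9.09% and 8.98% of all genes tested. Col3a1 was the most abundant gene of this list, and without it the sums were 26066 to 68617 and 54841 to 84870, still overlapping. Of 7 mural markers, with sums of 25298 to 30074 and 25859 to 30467, Rgs5 and Myh11 rose (28.6%, beside 12.6% of all genes tested). With the block 5 of the 7 markers passed, beside 18.1% of all genes. Notch3, also a gene of the MuSC surface, was the most abundant of them, and without it the sums were 9460 to 14914 and 15122 to 17794, with no overlap. Both sums without a gene were added after the values were seen. Rgs5 did not pass without any one of the Taf4asKO replicates (adjusted p 0.0645, 0.0811 and 0.0578), and its difference was 0.71 instead of 1.06 without Control replicate 1. Myh11 did not pass without Control replicate 1 or 2 (0.0952 and 0.0531) or Taf4asKO replicate 2 or 3 (0.154 and 0.148). The 3 immune markers analysed (7 others were not analysed here) and the 7 myofibre markers gave 0 calls in limma, beside 12.6% of all genes. An unadjusted limma p under 0.05 was found for 1 immune and 0 myofibre markers, beside 28.8% of all genes. The immune sums were 422 to 538 and 666 to 924, where Lyz2 (94, 357 and 320 against 465, 729 and 483) set the order. The myofibre sums were 1284 to 3900 and 2181 to 2751. Lyz2 passed under the replicate block (adjusted p 0.00396, against 0.0699 without it). Cd68 and Csf1r had log2 differences of -0.03 and -0.56 and did not pass. Of 7 MuSC markers Myf5, Cdh15 and Itga7 fell (42.9%, beside 6.71% of all genes tested lower), and the sums were 42773 to 44227 and 37430 to 41986. The log2 differences were below 0 for 6 of the 7, and Des was at 0.26 (limma adjusted p 0.234).

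Several surface markers are shared with these cells. Endothelial and fibro-adipogenic cells also make CD34. Beside the fall of Cd34, the endothelial sums were higher in Taf4asKO, the fibro-adipogenic sums overlapped, and of the 10 fibro-adipogenic markers Col3a1 (-1.58, adjusted p 0.000126) and Dpt (-1.69, adjusted p 0.000136) fell, Gsn (0.77, adjusted p 0.00356) rose, and the median log2 difference was 0.79. Of other genes that endothelial cells also make, Vcam1, Cav2 and Podxl rose, Cavin2 fell and Cav1 did not pass. Of genes that Schwann cells also make, L1cam, Erbb3 and Adgrg6 rose, Ngfr and Gfra1 fell, Ncam1 did not pass and Ncam2 passed under the block alone. The part of these cells in the values of the markers was not tested.

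**Figure D5:**
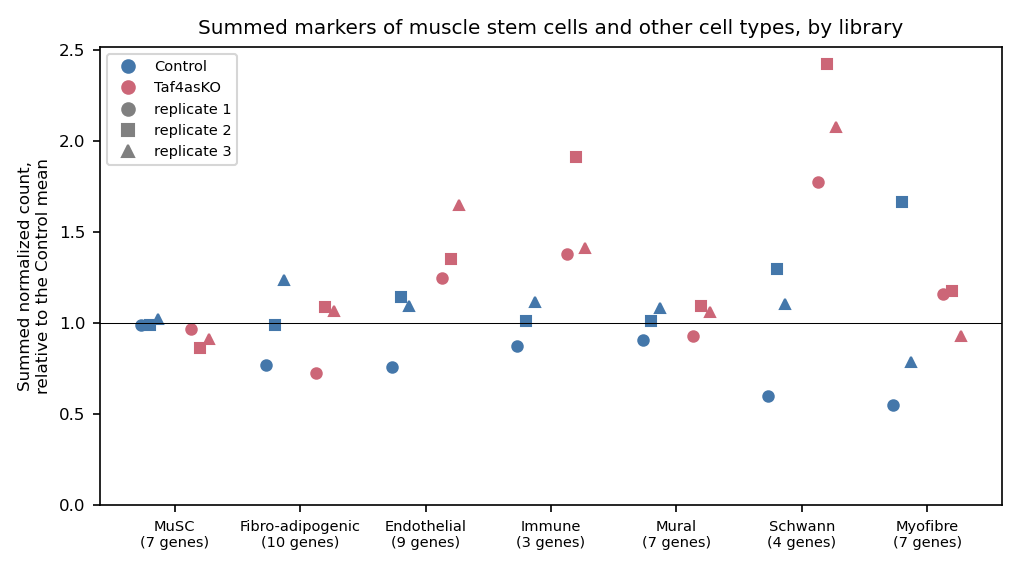
Summed normalized counts of marker lists by library, each divided by the mean of the 3 Control libraries for that list (vertical axis, from 0); colours give the group and shapes the replicate number. The Schwann, endothelial and immune sums of the Taf4asKO libraries all lie above those of Control, and the MuSC sums below. The order of the immune sums was set by Lyz2 alone. The Schwann list was shortened after its values were seen.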

How the data were processed

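Total RNA of sorted MuSCs was profiled in 6 libraries (3 Control, 3 Taf4asKO) made with a stranded low-input kit. According to the methods and processing notes of the study, the authors trimmed reads with Trimmomatic 0.39, aligned them to mm10 with STAR 2.6.0c, removed multi-mapping reads, counted reads over exons with featureCounts 1.6.0 without those overlapping several genes, and normalized with DESeq2 1.14.1. The deposited values are a score: reads divided by a size factor and rounded. This was inferred from whole numbers that never occur in a column. Of those up to 60, 9 were unused in Control replicate 1, 7 in Control replicate 2 and 4 in Taf4asKO replicate 2. In Control replicate 3 and Taf4asKO replicates 1 and 3, 0 were unused. A count model was therefore not used, and the reads behind each library were not analysed here.

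Of 22081 genes, the 18562 with a mean of at least 5 entered limma 3.58.1 (R 4.3.3, eBayes with intensity trend, two-sided) on log2(value + 1), which understates changes of low genes. The p, fold and mean limits are those of the study. The same replicate numbers in both groups come from the titles. Across genes, deviations from the group mean correlated between libraries of equal number at 0.235, 0.126 and 0.15, all above 0.1. Between libraries of unequal number the correlations ran from -0.149 to 0.0141. Deviations within a group sum to 0, which ties these values to each other, so they do not settle whether the libraries are paired. The main calls come from the fit without a block. A blocked fit, which takes the numbers as pairs, is given where it changed a call, for marker lists of other cell types as counts. Exon lengths and overlaps came from GENCODE M21 (mm10), where 99.8% of gene identifiers were found. Promoters came from RefSeq. Alternatives were other scalings, pseudocounts, filters, no trend, no fold limit and leaving out each library. Ratios within a library were tested by exact permutation, and this test was added after the values were seen. The members and gene lists were chosen with earlier results of these data known. All 10 members, the targeted gene, the sort markers and 19 direct partners were named by rule, and other listed genes if they passed. Others were named after their values were seen (Msn, Ext1, Ext2, Cavin3, Ehd2, Cav3, Cavin4, Layn, Gpc6, Sulf2, Fn1, Ptprs, Cxcl14, Cntfr, Ncam2 and the markers of other cell types). Some listed genes are not reported here, and the Schwann cell list was shortened for this after its values were seen. The analysis was tested on simulated data. Figures were drawn with matplotlib 3.10.9.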

Additional observations from a re-analysis of the deposited data

How the results depend on the processing

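The 10 markers were refitted under 15 alternatives, 150 values in all, of which 140 kept their direction and their side of the threshold. Cd34, Vcam1 and Sdc4 passed in every one of the 15. Cd82 lost its call with a variance prior without a trend (-0.48, adjusted p 0.108), and its adjusted p ran from 0.0089 to 0.108 over its alternatives. With the replicate block Cxcr4 passed (-0.39). The block changed no other call among the markers. The cause of these changes was not tested.

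When one library was left out, Cd82 ranged from -0.58 to -0.40, Sdc3 from -0.017 to 0.40, Calcr from -0.13 to 0.18, Ncam1 from 0.24 to 0.46, Cxcr4 from -0.52 to -0.28, Chodl from -0.46 (without Control replicate 2) to -0.18 (without Control replicate 3) and Cav1 from 0.18 (without Taf4asKO replicate 3) to 0.38 (without Control replicate 3). The markers past the threshold then numbered 3 to 6, with 1 to 2 lower and 2 to 4 higher. Partner genes numbered 6 to 20, with 4 to 5 lower and 2 to 15 higher. Other surface genes numbered 7 to 12, with 6 to 9 lower and 1 to 3 higher. All genes numbered 956 to 3096, with 595 to 1489 lower and 350 to 1607 higher. The lowest 3 of these counts of all genes (1249, 980 and 956) came without Taf4asKO replicate 1, 2 and 3.

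Without a trend 941 genes passed (604 lower, 337 higher), against 2347 (1246 lower, 1101 higher). In the same fit 1 marker was lower, 3 partners passed (2 lower, 1 higher) and 4 other surface genes passed (3 lower, 1 higher). With the replicate block 1688 of all genes and 14 partners were higher. The median over all genes was 0.004 and became -0.034 under upper-quartile scaling and 0.003 under total-count scaling. With 3 libraries a group, the median standard error was 0.11 on the log2 scale for genes with a mean of 500 or more, and 0.14 for Cxcr4 and 0.15 for Chodl.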
